A study of Rattus norvegicus with 16 samples.

Results

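Circadian clock genes were examined in bulk RNA-Seq of whole rat kidney, as 6 Ensembl gene IDs of 32623 in the count and TPM tables. The IDs were ENSRNOG00000007387, ENSRNOG00000020254, ENSRNOG00000014448, ENSRNOG00000002175, ENSRNOG00000021027 and ENSRNOG00000009329, taken from a list drawn up to hold the clock genes Arntl, Clock, Dbp, Nr1d1, Per1 and Per2. The tables carry no gene names, and 0 of these 6 IDs could be paired with a symbol, so each is reported by its ID alone and no role is assigned to any one of them. For the same reason other clock genes, steroid receptor target genes and markers of kidney cell types were not analysed here, and the tissue was not checked against its markers. All 6 IDs passed the filter on low counts.

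The data comprised 16 libraries of male Sprague-Dawley rats, 4 in each of 4 groups, labelled as 6 weeks. Control rats had a sham operation, injections of sesame oil and tap water. DOCA rats had a kidney removed, weekly injections of deoxycorticosterone acetate (DOCA, a mineralocorticoid hormone precursor) in sesame oil, and salt in the drinking water. DOCA rats also received vehicle by daily gavage. Finerenone rats and Spironolactone rats were treated as the DOCA rats, but their daily gavage gave finerenone or spironolactone, blockers of the mineralocorticoid receptor. Every comparison with Control thus covers the operation, DOCA and salt together. Whether Control rats were gavaged is not stated in the sources used here, so these comparisons may cover gavage as well. The rats were kept under a light and dark cycle, and the hour at which kidneys were taken is not given in the sources used here. Nothing in the labels ties the libraries of a group to separate animals, so p-values measure only the spread between these libraries.

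The circadian clock is a loop of transcription factors found in most cells, including those of the kidney. CLOCK and BMAL1, the product of Arntl, pair on DNA and activate Per1, Per2, Nr1d1 and Dbp. The PER proteins inhibit that pair, REV-ERB alpha (Nr1d1) represses Arntl, and DBP activates genes through D-box elements, so that Arntl transcript peaks when Nr1d1 and Dbp transcripts are low. Levels of such genes depend on the hour of the day, on feeding and on glucocorticoids.

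Promoters were shown to place these elements beside the genes named, without a link to any ID. RefSeq gave 8 promoter windows (build GRCr8) for the 6 clock genes, Arntl being listed as Bmal1, and the 250 bases before each start were searched on both strands. The E-box CACGTG stood in 1 of the 8 windows, compared with 5.59% of all 33469 promoters. The D-box TTANGTAA stood in 1 window, compared with 2.04% of all promoters. The extended element of REV-ERB and ROR stood in 1 window, compared with 0.206% of all promoters. A palindromic steroid receptor element stood in 0 of the 8 windows, compared with 0.373% of all promoters. A match is a description of letters and not a binding site. The 3 matches are given below 5′ to 3′ on the gene's strand, with up to 30 bases on each side and the matched letters in capitals.
Nr1d1 at chr10:84229610-84229675, minus strand: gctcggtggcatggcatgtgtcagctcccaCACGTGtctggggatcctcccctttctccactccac
Per2 at chr9:99497148-99497215, minus strand: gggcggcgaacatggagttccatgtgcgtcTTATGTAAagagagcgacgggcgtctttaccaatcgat
Bmal1 at chr1:176766279-176766327, plus strand: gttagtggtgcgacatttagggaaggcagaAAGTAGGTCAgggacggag

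The libraries held between 7063146 and 8056935 counts, and Spironolactone replicate 4 held 10932887. DOCA replicate 4 and Spironolactone replicate 4 were left out of the comparisons between groups, which left 14 libraries. The study excluded 1 library from each of these groups as an outlier without naming it, and that these were replicates 4 was inferred from its supporting values, which cover the other 3. With all 16 libraries, calls among the 6 IDs went from 0 to 2 in DOCA compared with Control and from 2 to 4 in Finerenone compared with DOCA, and their number was the same in the other 4 comparisons. Over all genes, calls went from 3902 of 14628 to 4333 of 14791 in the first and from 2011 to 2425 in the second. They went from 612 to 407 in Finerenone and from 3604 to 3606 in Spironolactone, each compared with Control. They went from 1672 to 1465 in Finerenone compared with Spironolactone. All 16 libraries are shown in the levels. Each library carries a code of 2 numbers whose meaning is not stated in the sources used here. Among the 16 libraries there were 9 first numbers, and each occurred in 1 group only. Any difference between groups is thus also one between first numbers, whereas first numbers can be compared within a group.

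Levels are given as TPM, a relative transcript abundance that allows for the length of each gene and is set to the same total in every library. ENSRNOG00000021027 spanned 17.89 to 239.91 TPM over the 16 libraries, ENSRNOG00000009329 spanned 4.47 to 73.55 TPM and ENSRNOG00000014448 spanned 1.47 to 16.37 TPM. These 3 IDs had the widest ranges, with the highest library 13.4 times, 16.5 times and 11.1 times the lowest. The other 3 IDs varied less. ENSRNOG00000007387 spanned 6.31 to 26.31 TPM, ENSRNOG00000020254 spanned 3.99 to 12.28 TPM and ENSRNOG00000002175 spanned 6.5 to 13.96 TPM. Lowest estimated counts per library ranged from 31 for ENSRNOG00000014448 to 436 for ENSRNOG00000002175, so every value rested on far more than the 3 counts taken as the floor of detection. In whole kidney, fewer cells of a type and less RNA per cell cannot be told apart.

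**Figure D1:**
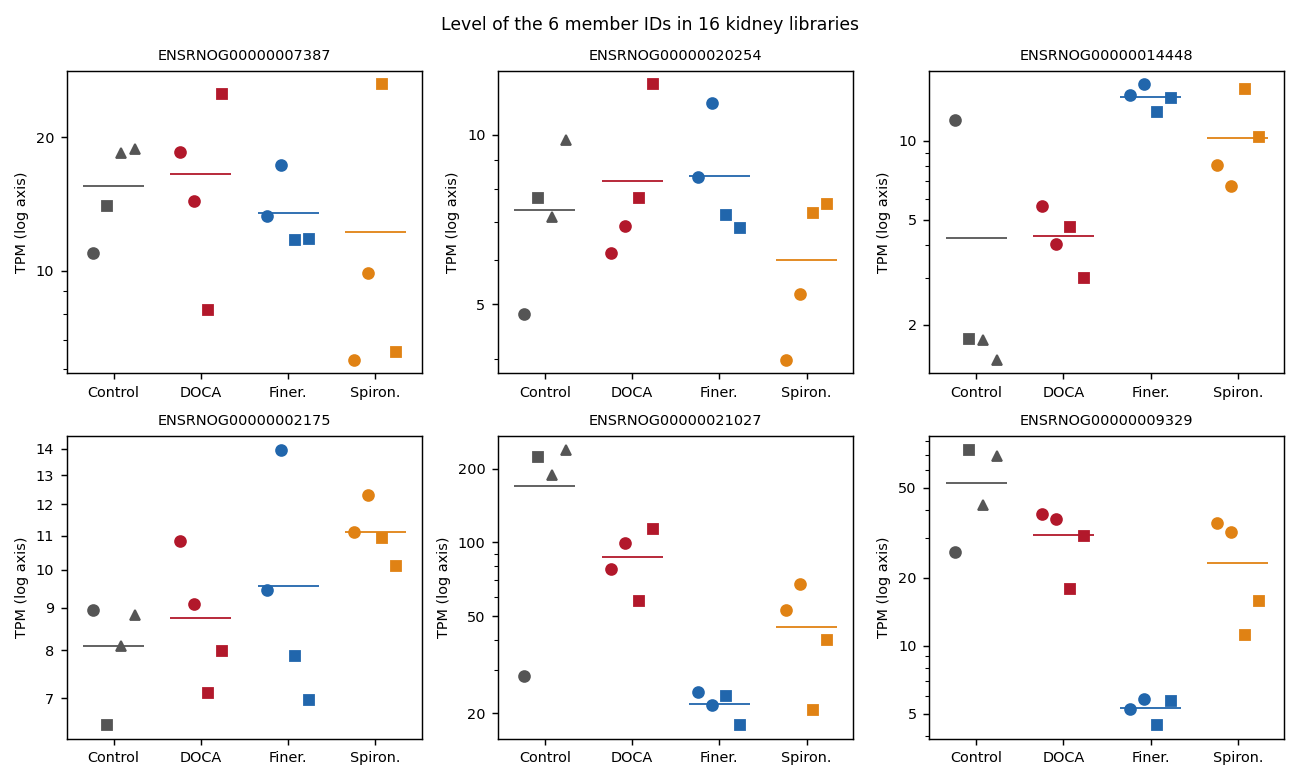
Level of each of the 6 IDs in TPM (log axis) in the 4 libraries of each group, with the group mean as a line and a different marker shape for each first code number within a group. The 4 Finerenone libraries of ENSRNOG00000009329 lie between 4.47 and 5.82 TPM, under every other library, and Control replicate 4 stands apart from the other Control libraries for ENSRNOG00000014448 and ENSRNOG00000021027.

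ENSRNOG00000009329 was lower in Finerenone rats than in every other group. Its level was 73.55, 41.77, 69.02 and 25.94 TPM in Control replicates 1 to 4, and 38.29, 36.43, 30.58 and 17.89 TPM in DOCA replicates 1 to 4. It was 5.28, 4.47, 5.82 and 5.69 TPM in Finerenone replicates 1 to 4, and 34.73, 31.74, 11.13 and 15.75 TPM in Spironolactone replicates 1 to 4. The Finerenone libraries did not overlap with any other group, whereas Control, DOCA and Spironolactone libraries overlapped with one another. How many of all genes separate groups in this way was not counted, here or for the IDs below, so separation is given as a description only. Means were 52.57 ± 22.6 TPM in Control, 30.8 ± 9.21 in DOCA, 5.32 ± 0.609 in Finerenone and 23.3 ± 11.6 in Spironolactone (SD, n = 4 each).

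For a call, the adjusted p of edgeR's quasi-likelihood test (Benjamini-Hochberg over 14628 genes) had to be under 0.05, and the log2 fold change 0.5 or more in either direction. By this rule ENSRNOG00000009329 fell by 2.34 ± 0.44 (SE) on the log2 scale in Finerenone compared with DOCA (adjusted p = 0.00388). It fell by 3.44 ± 0.42 (SE) in Finerenone compared with Control (adjusted p = 0.00162). The 4 Finerenone libraries were each below all libraries they were tested against. ENSRNOG00000009329 also fell by 1.89 ± 0.44 (SE) in Finerenone compared with Spironolactone (adjusted p = 0.0138), a call that was lost without Spironolactone replicate 1 (adjusted p = 0.0575) or replicate 2 (adjusted p = 0.0576). In Spironolactone compared with Control it fell by 1.55 ± 0.41 (SE, adjusted p = 0.0138), although in TPM Control replicate 4 lay below both Spironolactone replicates 1 and 2. The difference of DOCA from Control was -1.10 ± 0.40 (SE), with an adjusted p of 0.0538 that did not pass. It passed with DESeq2 (adjusted p = 0.0219), with all 16 libraries (-1.27, adjusted p = 0.0152), without Control replicate 4 (-1.33, adjusted p = 0.0137) and without Spironolactone replicate 3 (adjusted p = 0.0159).

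ENSRNOG00000021027, the most abundant of the 6 in TPM, was highest in 3 of the 4 Control libraries and low in all Finerenone libraries. Its level was 223.27, 189.53, 239.91 and 28.27 TPM in Control replicates 1 to 4, and 78.15, 99.73, 114.1 and 57.52 TPM in DOCA replicates 1 to 4. It was 24.53, 23.48, 21.64 and 17.89 TPM in Finerenone replicates 1 to 4, and 52.7, 67.68, 20.56 and 39.73 TPM in Spironolactone replicates 1 to 4. Control replicate 4 fell outside the range of the other Control libraries and below every DOCA library, and Spironolactone replicate 3 fell within the Finerenone range. Means were 170.2 ± 96.9 TPM in Control, 87.4 ± 24.8 in DOCA, 21.9 ± 2.92 in Finerenone and 45.2 ± 19.99 in Spironolactone (SD, n = 4 each).

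By the edgeR test, ENSRNOG00000021027 fell by 3.09 ± 0.59 (SE) on the log2 scale in Finerenone compared with Control (adjusted p = 0.0149), with all 4 Finerenone libraries below all 4 Control libraries. This call was lost without Finerenone replicate 4 (adjusted p = 0.0509). It fell by 2.36 ± 0.63 (SE) in Spironolactone compared with Control (adjusted p = 0.0145). These groups overlapped, since in TPM Control replicate 4 lay below both Spironolactone replicates 1 and 2. The difference of Finerenone from DOCA was -1.79 ± 0.60 (SE, adjusted p = 0.0594) and did not pass, although the libraries of the groups did not overlap. That of DOCA from Control was -1.30 ± 0.60 (SE, adjusted p = 0.115). Both passed without Control replicate 4, when the first was -1.79 (adjusted p = 0.00295) and the second was -1.65 (adjusted p = 0.00303). With all 16 libraries the first was -1.65 (adjusted p = 0.037) and the second -1.44 (adjusted p = 0.0373). DESeq2 called the first (adjusted p = 0.0131), as did limma on log2(TPM + 1) (-2.10, adjusted p = 0.0158).

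ENSRNOG00000014448 showed the opposite arrangement, with high levels in Finerenone libraries and in Control replicate 4. Its level was 1.76, 1.75, 1.47 and 12.01 TPM in Control replicates 1 to 4, and 5.66, 4.05, 3 and 4.68 TPM in DOCA replicates 1 to 4. It was 14.95, 12.84, 16.37 and 14.51 TPM in Finerenone replicates 1 to 4, and 8.06, 6.73, 15.73 and 10.34 TPM in Spironolactone replicates 1 to 4. Every Finerenone library was above every Control and DOCA library, and Spironolactone replicate 3 lay within the Finerenone range. Means were 4.25 ± 5.18 TPM in Control, 4.35 ± 1.12 in DOCA, 14.7 ± 1.45 in Finerenone and 10.2 ± 3.97 in Spironolactone (SD, n = 4 each). In CPM, counts relative to the scaled library total, the SD of the 4 Finerenone libraries was 0.893 around a mean of 43.0. These libraries held 289 to 341 counts of it, for which counting error alone would give a larger SD. The small SD is thus not a measure of uniform levels.

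In the edgeR test ENSRNOG00000014448 rose by 2.18 ± 0.69 (SE) on the log2 scale in Finerenone compared with DOCA (adjusted p = 0.0468). This call sat at the threshold. It was lost on leaving out any one of DOCA replicates 1 to 3, Finerenone replicates 1 to 4 or Spironolactone replicates 1 and 2, with adjusted p between 0.0534 and 0.147. Without Control replicate 4 the same difference had an adjusted p of 7.72e-05. The difference of Finerenone from Control was 1.68 ± 0.61 (SE, adjusted p = 0.15) and did not pass, and was 3.01 without Control replicate 4 (adjusted p = 6.67e-05). The difference of Spironolactone from Control was 0.76 ± 0.66 (SE, adjusted p = 0.413), and was 2.09 without that library (adjusted p = 0.000136). On log2(TPM + 1), tested with limma, both differences from Control passed, at 1.98 (adjusted p = 0.0242) and 1.42 (adjusted p = 0.0247). That of Finerenone from Spironolactone was 0.92 ± 0.63 (SE, adjusted p = 0.36), and passed without that library (adjusted p = 0.0183). For DOCA compared with Control even the direction depended on Control replicate 4, at -0.50 ± 0.71 (SE) with it and 0.82 ± 0.32 (SE) without it, and neither passed (adjusted p = 0.621 and 0.0626).

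ENSRNOG00000020254 was called lower in Spironolactone rats than in Control and Finerenone rats, on counts scaled by TMM or RLE (which correct library totals for the make-up of the library). Its level was 7.73, 7.14, 9.79 and 4.81 TPM in Control replicates 1 to 4, and 6.17, 6.9, 12.28 and 7.72 TPM in DOCA replicates 1 to 4. It was 8.4, 7.21, 11.39 and 6.83 TPM in Finerenone replicates 1 to 4, and 3.99, 5.21, 7.25 and 7.52 TPM in Spironolactone replicates 1 to 4. All groups overlapped in TPM. The edgeR test gave a fall by 0.95 ± 0.29 (SE) on the log2 scale in Spironolactone compared with Control (adjusted p = 0.0208), which was lost without Control replicate 3 (adjusted p = 0.0531), Spironolactone replicate 1 (adjusted p = 0.0838) or replicate 2 (adjusted p = 0.0784). In Finerenone it was higher than in Spironolactone by 1.01 ± 0.28 (SE, adjusted p = 0.0271), which was lost without Finerenone replicate 3 (adjusted p = 0.0518), Spironolactone replicate 1 (adjusted p = 0.106) or replicate 2 (adjusted p = 0.105). On log2(TPM + 1), tested with limma, neither difference passed, at -0.36 (adjusted p = 0.266) and 0.55 (adjusted p = 0.113). Nor did either pass on counts scaled by library size alone, at -0.64 (adjusted p = 0.0999) and 0.80 (adjusted p = 0.0637). Spironolactone compared with DOCA gave -0.63 ± 0.30 (SE), which did not pass (adjusted p = 1.00).

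ENSRNOG00000002175 was the steadiest of the 6. It ranged from 6.5 to 8.95 TPM in Control, 7.1 to 10.83 in DOCA and 6.96 to 13.96 in Finerenone libraries. The Spironolactone libraries started at 10.11 TPM, with a mean of 11.1 ± 0.903 (SD, n = 4). This order of groups held in TPM only. In CPM its mean was 74.2 in Spironolactone, 78.7 in Control, 59.7 in DOCA and 85.1 in Finerenone libraries. Its log2 fold change was -0.35 ± 0.12 (SE) in DOCA compared with Control (adjusted p = 0.0331) and 0.46 ± 0.12 (SE) in Finerenone compared with DOCA (adjusted p = 0.0123), in both cases short of the 0.5 required. The latter reached 0.51 with all 16 libraries (adjusted p = 0.00362), 0.51 without DOCA replicate 1 (adjusted p = 0.0237) and 0.55 without Finerenone replicate 4 (adjusted p = 0.00331). On log2(TPM + 1) the difference of DOCA from Control turned to 0.18 (adjusted p = 0.454).

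ENSRNOG00000007387 passed in 0 of the 6 comparisons and had wide groups. It ranged from 10.98 to 18.79 TPM in Control, 8.17 to 25.01 in DOCA, 11.71 to 17.34 in Finerenone and 6.31 to 26.31 in Spironolactone libraries. Spironolactone replicate 3 held the highest value of all 16 libraries and Spironolactone replicate 1 the lowest. Without Spironolactone replicate 3, the difference of Spironolactone from Control was -1.47 (adjusted p = 0.000548) instead of -0.65 ± 0.41 (SE, adjusted p = 0.249). That of Finerenone from Spironolactone was then 1.14 (adjusted p = 0.00717) instead of 0.32 ± 0.41 (SE, adjusted p = 0.638).

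**Figure D2:**
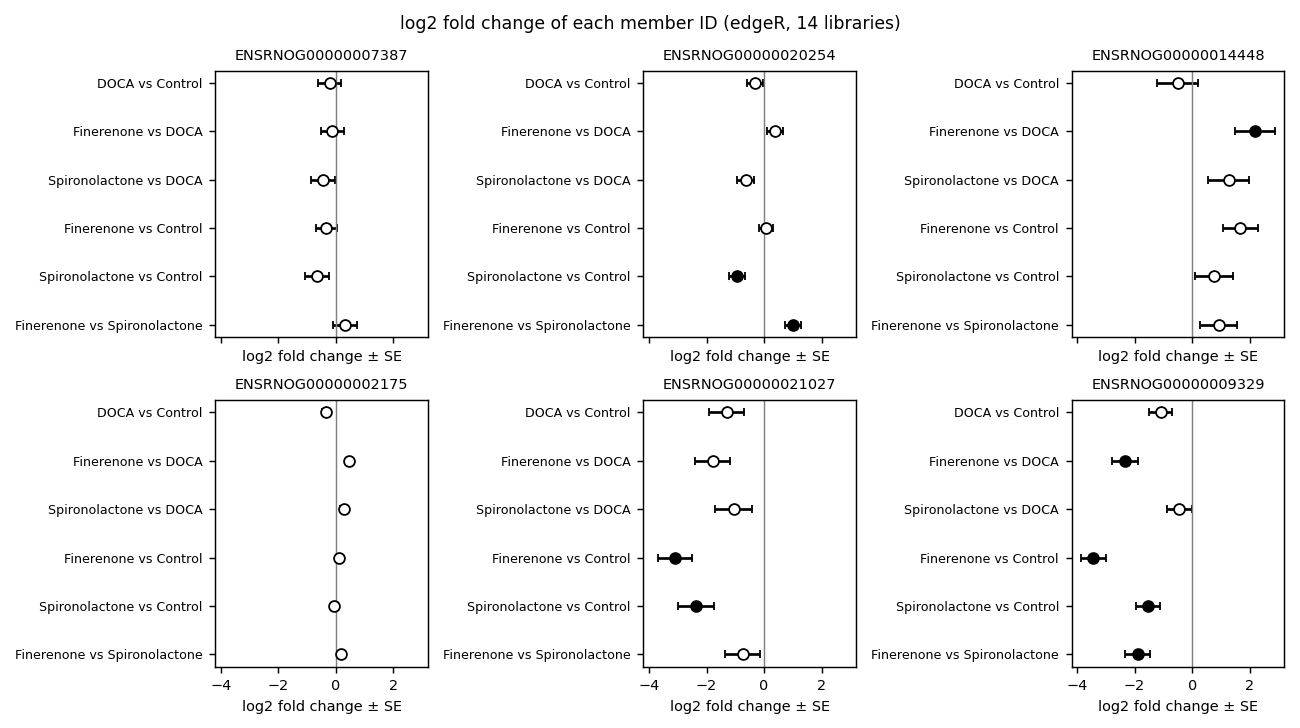
log2 fold change ± SE of each ID in the 6 comparisons (edgeR, 14 libraries), with filled points for called differences and open points for the others. Called points are found in 4 of the 6 panels, and the largest is the fall of ENSRNOG00000009329 by 3.44 in Finerenone compared with Control.

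Across the comparisons, calls among the 6 IDs were set beside the share of all genes called by the same rule. In DOCA compared with Control 0 of 6 were called, with 26.7% of all genes called. In Finerenone compared with DOCA 2 of 6 were called, 1 higher and 1 lower, with 13.7% of all genes. In Finerenone compared with Control 2 of 6 were called, both lower, with 4.18% of all genes. The corresponding counts were 3 of 6 in Spironolactone compared with Control, all lower, with 24.6% of all genes. They were 2 of 6 in Finerenone compared with Spironolactone, 1 higher and 1 lower, with 11.4% of all genes. In Spironolactone compared with DOCA edgeR called 0 of 6 and 0% of all genes, whereas 578 of all genes had an unadjusted p under 0.05 and DESeq2 called 11 genes and 0 of the 6. In that comparison only ENSRNOG00000002175 of the 6 had an unadjusted p under 0.05 (0.0405), and all adjusted p were 1.00. The comparisons share libraries, so their calls are not independent of one another. When libraries with the same first code number were summed and counted as 1 sample, which left 9 samples, 0 of the 6 passed in any comparison, and the differences called above had adjusted p between 0.0997 and 0.294. ENSRNOG00000009329 was then -3.43 ± 0.69 (SE) in Finerenone compared with Control and -2.28 ± 0.70 (SE) compared with DOCA. In that fit 1180 of 14850 genes were called in Finerenone compared with DOCA, 173 compared with Control and 684 compared with Spironolactone. The number was 3610 in DOCA compared with Control, 3115 in Spironolactone compared with Control and 0 in Spironolactone compared with DOCA.

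Libraries of a group that share the first number of their code were then compared with those that do not, since levels of clock genes vary with the hour of the day. Control replicates 2 and 3 had first number 12, replicate 1 had 11 and replicate 4 had 10. DOCA replicates 1 and 2 had 7, and replicates 3 and 4 had 8. Finerenone replicates 1 and 3 had 2, and replicates 2 and 4 had 3. Spironolactone replicates 1 and 2 had 4, and replicates 3 and 4 had 6. What these numbers record, and so whether they follow the hour of collection, was not tested.

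The gap between 2 libraries of a group, in log2 CPM, was averaged over the 7 pairs with the same first number and over the 17 pairs with different ones. For ENSRNOG00000009329 these averages were 0.321 and 0.763, a ratio of 2.37, and for ENSRNOG00000014448 they were 0.351 and 0.818, a ratio of 2.33. The ratio was 1.89 for ENSRNOG00000021027, 1.84 for ENSRNOG00000020254 and 1.83 for ENSRNOG00000002175. It was 0.897 for ENSRNOG00000007387, and the median ratio of all genes tested was 1.12. The ratio was above 1 for 5 of the 6 IDs and for 64.6% of all genes. Without the Control libraries, the ratio fell to 1.20 for ENSRNOG00000014448 and 1.02 for ENSRNOG00000021027, near the median of 1.10 over all genes, but was 2.48 for ENSRNOG00000009329, 1.89 for ENSRNOG00000020254 and 1.69 for ENSRNOG00000002175.

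**Figure D3:**
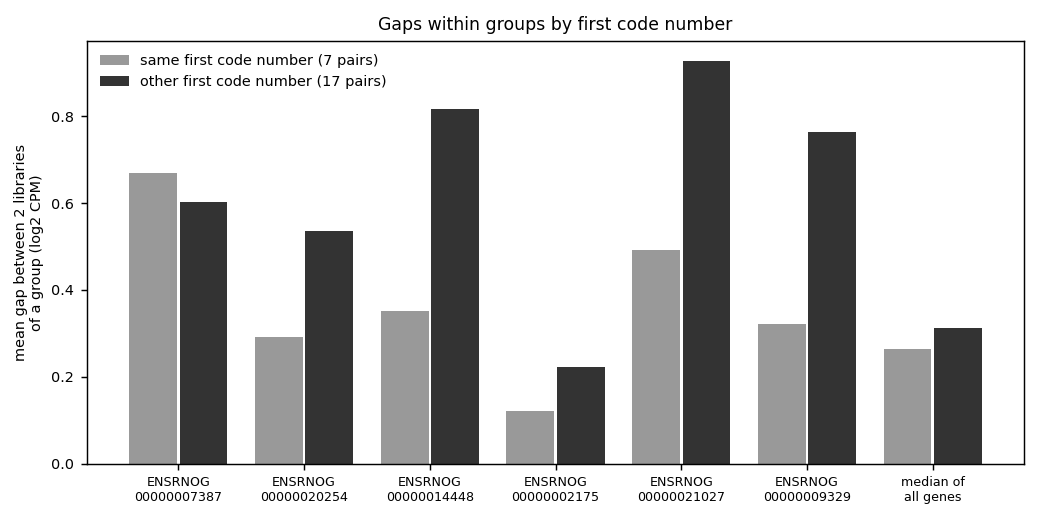
Mean gap in log2 CPM between 2 libraries of the same group, for 7 pairs that share their first code number (light bars) and 17 pairs that do not (dark bars), for each ID and as the median over all genes tested. Dark bars exceed light bars for 5 of the 6 IDs, and ENSRNOG00000007387 is the exception.

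A test of all differences between first numbers within groups, in 1 edgeR fit of the 16 libraries, called only ENSRNOG00000014448 of the 6 (F = 22.7, adjusted p = 0.0114), with 0.0338% of all genes called. The next lowest adjusted p was that of ENSRNOG00000009329 (0.135; unadjusted p = 0.000273). The call was lost without Control replicate 4 (adjusted p = 0.374), replicate 2 (0.0607) or replicate 3 (0.0952) and without Finerenone replicate 1 (0.061), replicate 2 (0.0604) or replicate 4 (0.0587). Without DOCA replicate 3, 4 of the 6 passed, without DOCA replicate 4, 3 passed, and with the 14 libraries 5 passed. In these fits 1697, 211 and 270 of all genes passed, compared with 5 in the fit of 16 libraries.

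Within single groups the picture differed. Within Control, ENSRNOG00000014448 passed (adjusted p = 0.00312), with 0.0879% of all genes called. First numbers 10 and 11 each hold 1 Control library, which the fit assumes to vary like the pairs of libraries with other first numbers. Without replicate 4, the only library with first number 10, the difference within Control was -0.25 ± 0.40 (SE, adjusted p = 0.965). Within DOCA 0 of 6 passed, with 0.0203% of all genes, and within Finerenone 0 of 6, with 0.00676%. Within Spironolactone 0 of 6 and 0% of all genes passed in the fit of 16 libraries. An unadjusted p under 0.05 was found for 4 of the 6 within Spironolactone and 4.83% of all genes, 4 within Control and 7.52%, 3 within DOCA and 14.4%, and 1 within Finerenone and 13.1%. Within Spironolactone, ENSRNOG00000009329 was 34.73 and 31.74 TPM with first number 4 compared with 11.13 and 15.75 TPM with first number 6, a difference of -1.28 ± 0.24 (SE) on the log2 scale (unadjusted p = 0.000176, adjusted p = 0.333). ENSRNOG00000021027 differed by -0.97 ± 0.35 (SE), ENSRNOG00000014448 by 0.83 ± 0.24 (SE) and ENSRNOG00000020254 by 0.71 ± 0.20 (SE) between the same libraries. In Finerenone rats the difference between first numbers was -0.02 ± 0.23 (SE) for ENSRNOG00000014448, 0.05 ± 0.28 (SE) for ENSRNOG00000009329 and 0.05 ± 0.37 (SE) for ENSRNOG00000021027. It was -0.36 ± 0.12 (SE, unadjusted p = 0.00905, adjusted p = 0.25) for ENSRNOG00000002175, -0.31 ± 0.19 (SE) for ENSRNOG00000020254 and -0.19 ± 0.65 (SE) for ENSRNOG00000007387. With the 14 libraries, Spironolactone replicate 3 alone held first number 6. The difference within Spironolactone was then 1.72 for ENSRNOG00000007387, -1.56 for ENSRNOG00000009329, -1.51 for ENSRNOG00000021027 and 1.10 for ENSRNOG00000014448. It was 0.67 for ENSRNOG00000020254 and 0.03 for ENSRNOG00000002175.

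The spread within groups was given as the pooled SD of log2 CPM over the 16 libraries. It was 0.845 for ENSRNOG00000021027, 0.777 for ENSRNOG00000014448, 0.594 for ENSRNOG00000007387 and 0.574 for ENSRNOG00000009329, compared with a median of 0.265 over all genes tested. It was 0.384 for ENSRNOG00000020254 and 0.170 for ENSRNOG00000002175. Among genes whose mean lay within 1 log2 unit of their own, the 6 IDs stood at the 98.6, 93.6, 99.1, 60.4, 99.5 and 98.3 percentiles of spread, in the order in which they were first named. Without Control replicate 4 the spread dropped to 0.445 for ENSRNOG00000021027 and 0.359 for ENSRNOG00000014448, and it was 0.598 for ENSRNOG00000007387 and 0.509 for ENSRNOG00000009329. Among all genes, the percentile of spread then went from 96.2 to 74.5 for ENSRNOG00000021027 and from 94.4 to 65.2 for ENSRNOG00000014448. It went from 85.5 to 86.3 for ENSRNOG00000007387 and from 84.3 to 80.0 for ENSRNOG00000009329.

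ENSRNOG00000014448 and ENSRNOG00000021027 varied inversely within groups. Over the 16 libraries, the deviations from the group mean of log2 CPM had Pearson's r of -0.969 (exact permutation within groups, 2-sided, p = 0.000555, adjusted p = 0.00832 over 15 pairs) and Spearman's rho of -0.938 (exact p = 0.000401, adjusted p = 0.00601). Without the 2 libraries farthest from the median of ENSRNOG00000014448, r was -0.897 (exact p = 0.00217, adjusted p = 0.0326). Control replicate 4 lay apart from all others in this relation, and without it r was -0.872 (exact p = 0.00335, adjusted p = 0.0503). Taken as deviations from the mean of each first number, r was -0.917 (exact p = 0.0156, the smallest that 128 arrangements allow, adjusted p = 0.117).

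ENSRNOG00000021027 and ENSRNOG00000009329 varied together, with r of 0.792 (exact p = 0.00324, adjusted p = 0.0243) and rho of 0.738 (exact p = 0.00435, adjusted p = 0.0326). Without the 2 libraries farthest from the median of ENSRNOG00000021027, r was 0.617 (exact p = 0.0789, adjusted p = 0.227), so the call rested on those libraries. Without Control replicate 4, r was 0.783 (exact p = 0.0161, adjusted p = 0.121). ENSRNOG00000014448 and ENSRNOG00000009329 had r of -0.701 (exact p = 0.0183, adjusted p = 0.0916) and rho of -0.624 (exact p = 0.0447, adjusted p = 0.223), which did not pass. In the other 12 pairs r lay between -0.45 and 0.466 and rho between -0.297 and 0.471, and the lowest adjusted p was 0.394 for r and 0.456 for rho.

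**Figure D4:**
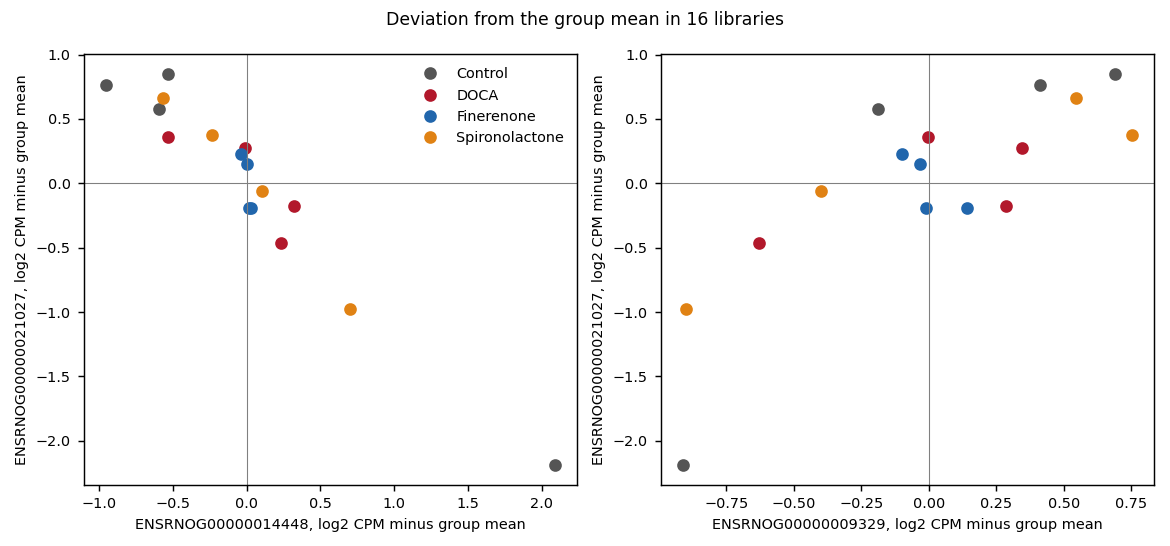
Deviation of each of the 16 libraries from its group mean, in log2 CPM, for ENSRNOG00000021027 against ENSRNOG00000014448 (left) and against ENSRNOG00000009329 (right), with groups in colour. Points fall from upper left to lower right on the left (r = -0.969) and rise on the right (r = 0.792), and the Control library lowest on the vertical axis in both panels is replicate 4.

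The gene outside the list whose deviations were most like those of each ID was sought among 12434 genes with a mean log2 CPM of at least 1, as a description over the same 16 libraries. It was ENSRNOG00000000609 for ENSRNOG00000007387 (r = 0.946), ENSRNOG00000004842 for ENSRNOG00000020254 (r = 0.896) and ENSRNOG00000000503 for ENSRNOG00000014448 (r = 0.896). It was ENSRNOG00000001774 for ENSRNOG00000002175 (r = 0.947), ENSRNOG00000046912 for ENSRNOG00000021027 (r = 0.945) and ENSRNOG00000017581 for ENSRNOG00000009329 (r = 0.876). ENSRNOG00000000503 was also the gene most opposed to ENSRNOG00000021027 (r = -0.925). It ranged from 7.49 to 50.1 TPM, and ENSRNOG00000046912 from 5.87 to 31.2 TPM. Of the 12434 genes, 19 were more like ENSRNOG00000009329 than its closest ID of the 6, ENSRNOG00000021027, was. The same number was 35 for ENSRNOG00000021027, 472 for ENSRNOG00000020254, 1023 for ENSRNOG00000007387, 2117 for ENSRNOG00000014448 and 3302 for ENSRNOG00000002175. These values share libraries, depth and scaling, and the highest of many correlations is high by selection.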

How the data were processed

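Bulk RNA-Seq of polyadenylated RNA was analysed in 16 rat kidney libraries, grouped by their labels. Per the submitters' processing notes and the study's methods, the authors trimmed reads with Trim Galore 0.4.5, aligned them with STAR 2.7.3a to rn6 and quantified genes with RSEM; the annotation is not given in the sources used here. The deposited estimated counts are unscaled RSEM values per gene, of which 3.14% were not whole, and were rounded. The deposited TPM allow for gene length and have the same total in each library, as the authors' RSEM run set them, which makes them relative: a rise of abundant genes lowers all others. Reads shared by close gene copies can be split in such counting.

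The 6 IDs and all gene lists were chosen with earlier results of these data known. Named IDs were these 6 and, for each, the most alike other gene. ID and symbol could not be paired, since the RefSeq gene table (GRCr8) has 0 Ensembl IDs among its 47357 genes, so lists given by symbol (clock pathway, steroid targets, cell type markers) were not used.

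Groups were compared with edgeR 4.0.16 in R 4.3.3 (quasi-likelihood F test, robust, TMM, 1 fit of 4 groups, 14 libraries, counts above 4 in 3 or more libraries). Log2 CPM used a prior count of 2 over 16 libraries. Each standard error was derived from the F value and fold change. Correlations used every permutation within groups, in Python 3.11.15 with numpy 2.4.6. Only the edgeR tests, of groups and of first code numbers, were checked on simulated counts. Alternatives were RLE and library size alone, filterByExpr and no filter, DESeq2 1.42.0, limma 3.58.1 on TPM (log2, pseudocount 1 or 0.1), all 16 libraries, a replicate block, summed first code numbers and leaving out each library. The correlations without Control replicate 4 were added after the data were seen.

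Over the 24 pairs of libraries of the same group, chi-square per gene was 4.29 to 38.3, above sampling noise, so none was counted as a duplicate. A floor of 3 counts corresponded to 0.247 to 0.485 CPM and covers counting error only.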

Additional observations from a re-analysis of the deposited data

Results flagged for a closer look

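Each of the 24 sets of 4 libraries (6 IDs in 4 groups) was examined for a library whose gap to its nearest neighbour was too large a part of the group's range in CPM by Dixon's criterion for 4 values. Chance alone flags about 1 in 20 sets. A library met this in 2 sets. ENSRNOG00000014448 was 38.2 CPM in Control replicate 4, the highest of its group. ENSRNOG00000007387 was 82.4 CPM in Spironolactone replicate 3, the highest of its group. The cause was not tested for either.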

How the results depend on the processing

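The lowest count was 31, of ENSRNOG00000014448 in Control replicate 3, so counting error weighs most there. Scaling mattered for small differences: for DOCA compared with Control over all genes the log2 fold change had a median of 0.02 with TMM, 0.37 with library size alone, 0.38 on log2(TPM + 1) and 0.52 on log2(TPM + 0.1), and the 3902 calls split into 2247 higher and 1655 lower with TMM but 4530 higher and 494 lower with library size alone. Causes beyond the construction of each alternative were not tested.

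The count of IDs called in DOCA compared with Control (0) was 1 with DESeq2, 2 with all 16 libraries, 1 with a replicate block and 0 to 2 on leaving out a library. Over all genes (3902 called) it was 4016, 4333 and 3842 in these alternatives and 3408 to 3924 on leaving out a library. In Finerenone compared with DOCA the count of IDs (2) was 1 with no filter, 4 with all 16 libraries, 0 with summed first code numbers and 1 to 3 on leaving out a library. Over all genes (2011 called) it was 1901, 2425 and 1180 in these alternatives and 1508 to 2161 on leaving out a library. The count of IDs was 3 with DESeq2 (2169 of all genes) and 3 on each of the 3 TPM scales (4082 to 4430 of all genes). In Finerenone compared with Control the count of IDs (2) was 0 with summed numbers and 1 to 3 on leaving out a library. Over all genes (612 called) it was 173 with summed numbers and 349 to 847 on leaving out a library. The count of IDs was 3 on each of the 3 TPM scales (475 to 731 of all genes). In Spironolactone compared with Control the count of IDs (3) was 0 with summed numbers, 2 with library size alone, 2 on log2(TPM + 1) without a filter and 2 to 4 on leaving out a library (2 without Control replicate 3 or Spironolactone replicate 1 or 2, 4 without Control replicate 4 or Spironolactone replicate 3). Over all genes (3604 called) it was 3115, 4540 and 5790 in these alternatives and 2893 to 3641 on leaving out a library. In Finerenone compared with Spironolactone the count of IDs (2) was 1 with library size alone, 1 on each of the 3 TPM scales, 0 with summed numbers and 0 to 3 on leaving out a library. Over all genes (1672 called) it was 2640 with library size alone and 3827 to 4269 on the TPM scales. It was 684 with summed numbers and 1053 to 1825 on leaving out a library. The test of first code numbers (1) gave 5 with 14 libraries, 0 on log2(TPM + 1) and 0 to 4 on leaving out a library. Over all genes (5 called) it gave 270 with 14 libraries, 5 on log2(TPM + 1) and 2 to 1697 on leaving out a library. Of 15 correlations, 2 passed. Without the 2 libraries farthest from the median 1 passed, and without Control replicate 4 0 passed. Within first numbers 0 passed, but there 128 arrangements allow no exact permutation p under 0.0156. A single pair could thus not pass after adjustment over 15 pairs, and this count does not show that the correlations are lost. With 14 libraries 2 passed, of which 1 was another pair, ENSRNOG00000007387 with ENSRNOG00000020254 (r = 0.772).

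No difference that turned sign was called with the 14 libraries or where it had turned, but ENSRNOG00000007387 in Finerenone compared with Spironolactone was called at 1.14 and ENSRNOG00000002175 in Finerenone compared with DOCA in 3 alternatives (0.51 to 0.55), with the original sign. For DOCA compared with Control, ENSRNOG00000007387 was 0.14 with library size alone, 0.29 on log2(TPM + 1), filtered or not, and 0.31 on log2(TPM + 0.1). On the same scales ENSRNOG00000020254 was 0.034, 0.15 and 0.17. ENSRNOG00000014448 was 0.37 and 0.56 on the TPM scales, 0.25 with the replicate block and from -0.81 to 0.82 on leaving out a library (0.82 without Control replicate 4), and ENSRNOG00000002175 was 0.18 and 0.20 on the TPM scales. For Finerenone compared with DOCA, ENSRNOG00000007387 was 0.083 with all 16 libraries, 0.0024 with the replicate block and from -0.27 to 0.095 on leaving out a library (0.095 without DOCA replicate 3), and ENSRNOG00000002175 was -0.0013 on log2(TPM + 0.1). For Finerenone compared with Control, ENSRNOG00000020254 was between -0.096 (without Control replicate 4) and 0.19, and -0.023 without Finerenone replicate 3. For Spironolactone compared with Control, ENSRNOG00000002175 was 0.25 with library size alone, 0.46 on log2(TPM + 1) and 0.50 on log2(TPM + 0.1). For Finerenone compared with Spironolactone, it was -0.044, -0.28 and -0.31 on these scales, and ENSRNOG00000007387 was between -0.023 (without Spironolactone replicate 1) and 1.14.

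Replicate numbers did not pair the libraries: deviations from group means correlated over 0.1 in 5 of 24 same-numbered pairs, from -0.153 to 0.281. With the replicate block ENSRNOG00000009329 passed in DOCA compared with Control (adjusted p = 0.0498), and in Finerenone compared with DOCA ENSRNOG00000020254 passed (0.55, adjusted p = 0.0176) while ENSRNOG00000014448 did not (1.90, adjusted p = 0.0661).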
